A study of Mus musculus with 2 samples.

Results

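The regions described here are the H3K36me2 peaks that the deposited annotation places at the 3' ends of genes in mouse colon. They comprise every peak annotated as 3' UTR or as Downstream, a class that reaches at most 3 kb past a transcript's end, and are called gene-end peaks below. Of 43494 peaks in all, 3652 met this rule. The Nsd2fl/fl list held 1753 of them among 19976 peaks, a share of 8.78% (95% Wilson interval 8.39% to 9.18%). The Nsd2ΔIE list held 1899 among 23518 peaks, a share of 8.07% (7.73% to 8.43%). In the first list 1573 were 3' UTR and 180 Downstream peaks, and in the second 1646 and 253.

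The data came from CUT&Tag, in which an antibody against H3K36me2 guides the transposase Tn5 to chromatin. One colon library was made from Nsd2fl/fl mice, whose floxed *Nsd2* served as control, and 1 from Nsd2ΔIE mice, in which Villin-Cre deletes *Nsd2* in the intestinal epithelium. Both groups were male C57BL/6J-background littermates on HFCD, a high-fat and high-cholesterol diet, for 16 weeks by the deposited design text and for 18 weeks by the study's methods, which start the diet at 7 to 8 weeks of age. Villin-Cre acts in epithelial cells only, so immune, stromal and muscle cells of the colon keep *Nsd2*. How many animals stood behind a library, and whether the controls carried Cre, is not given in the sources used here. Since each genotype had a single library, the genotypes were not tested against each other, differences have no replicate check, and intervals cover counting error only. The read depth of the libraries is unknown. Fewer cells of a type and less of the mark per cell cannot be told apart in such tissue libraries.

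H3K36me2 is a histone mark laid down by NSD2 and its relatives NSD1, NSD3 and ASH1L. It typically spreads over broad intergenic and genic domains, whereas H3K36me3, deposited by SETD2 along with elongating RNA polymerase II, marks the bodies of transcribed genes towards their 3' ends. At a gene's 3' end the transcript is cleaved and polyadenylated, and neighbouring genes on opposite strands can end close to each other.

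The gene-end peaks were broad regions. In Nsd2fl/fl their width had a median of 4770 bp, with quartiles at 4014 and 5978 bp and a range of 2160 to 23599 bp, against a median of 4633 bp for all other peaks. In Nsd2ΔIE the median was 3565 bp, with a range of 1399 to 22190 bp, against 3413 bp for the others. Promoter and 5' UTR peaks had similar medians, 4830 and 4865.5 bp in Nsd2fl/fl and 3555 and 3542.5 bp in Nsd2ΔIE, so the width was not particular to gene ends. All of these medians were lower in the Nsd2ΔIE list. Downstream peaks had medians of 4429 and 3243 bp, below the 4816 and 3616 bp of the 3' UTR peaks. The summed signal that the authors give for each peak, divided by its width, had medians of 6.25 per bp in Nsd2fl/fl and 6.46 per bp in Nsd2ΔIE, near the 6.13 and 6.31 of all other peaks. Peaks of at least 10 kb numbered 74 in Nsd2fl/fl and 24 in Nsd2ΔIE.

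The gene that the annotation assigns to a peak was often not the gene whose end the peak marked. The assignment goes to the nearest transcription start site (TSS), while the class can come from any transcript that the peak meets. In Nsd2fl/fl, 1095 of the 1753 gene-end peaks (62.5%, 60.2% to 64.7%) did not touch the transcript they were assigned to, and in Nsd2ΔIE 1214 of 1899 (63.9%, 61.7% to 66.1%) did not. The assigned transcript was touched by 37.5% and 36.1% of gene-end peaks, 48.5% and 44.5% of all peaks, and 48.7% and 49.4% of exon peaks. None of the Downstream peaks touched it. Even so, 93 of 180 and 147 of 253 Downstream peaks lay within 3 kb past its end, so not touching does not make the assigned gene a wrong one. Of the Nsd2fl/fl peaks, 410 covered the end of the assigned transcript, 248 lay inside it before its end, 458 lay past its end and 637 lay before its start. In Nsd2ΔIE these numbers were 396, 289, 551 and 663. The assigned transcript's end was covered or within 3 kb in 42.0% and 42.8%. Which library had the higher share changed with the measure. Within 1 kb the shares were 32.7% and 29.7%, and with the peak's centre in place of its edge 27.3% and 30.8%. Because promoter peaks are a class of their own, no gene-end peak lay within 3 kb of a TSS named in the lists, and this follows from the rule.

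Gene-end peaks lay at moderate distances from a TSS, at a median of 10863 bp in Nsd2fl/fl and 10682 bp in Nsd2ΔIE. Between 3 and 10 kb lay 809 (46.1%) and 892 (47.0%), and the others lay farther away. The assigned transcript was a curated coding one (RefSeq NM) for 658 and 717 peaks, a predicted coding one (XM) for 457 and 480, and a predicted non-coding one (XR) for 411 and 439. The assigned gene also had a promoter peak in the same library for 503 Nsd2fl/fl peaks (28.7%, 26.6% to 30.9%) and 558 Nsd2ΔIE peaks (29.4%, 27.4% to 31.5%). Among all other peaks away from promoters this share was 27.7% and 27.6%, within these intervals.

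Setting every peak against the ends of all transcripts that the lists name gave a second view. The lists name only transcripts assigned to a peak, so the shares of peaks over or near an end are lower limits. A listed end lay in the peak or within 3 kb of it for 1321 Nsd2fl/fl peaks (75.4%) and 1397 Nsd2ΔIE peaks (73.6%). The peak covered an end in 808 (46.1%) and 781 (41.1%) cases, and in 380 and 366 of these no listed end of the assigned gene was covered. The Nsd2fl/fl peaks were the wider ones, and the part of width in these shares was not tested.

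The position of a peak around an end was measured for the peaks that cover the end of exactly 1 gene, 702 in each library. They lie on both sides of the end by this choice, and a 3' UTR peak meets the inside of a gene by its class, so the values are a description. Where several listed transcripts of the gene ended in a peak, the end that reaches furthest was used. This rule shifts positions, if at all, towards the inside of the gene. In Nsd2fl/fl a median of 2865.5 bp lay before the end and 2093.5 bp past it. In Nsd2ΔIE the medians were 2197 and 1359.5 bp. Before the end lay a median of 58.5% of the peak in Nsd2fl/fl and 62.5% in Nsd2ΔIE, close to the shares of strongest stretches that follow. The strongest stretch of the peak, as given in the authors' peak names, had its middle before the end in 407 Nsd2fl/fl peaks (58.0%, 54.3% to 61.6%) and in 442 Nsd2ΔIE peaks (63.0%, 59.3% to 66.5%). Relative to the end, its median position was -483.5 bp in Nsd2fl/fl and -529 bp in Nsd2ΔIE, where negative values lie inside the gene. It came within 1 kb of the end in 276 (39.3%) and 341 (48.6%) peaks, where a narrower peak over an end leaves less room for a distant position.

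**Figure D1:**
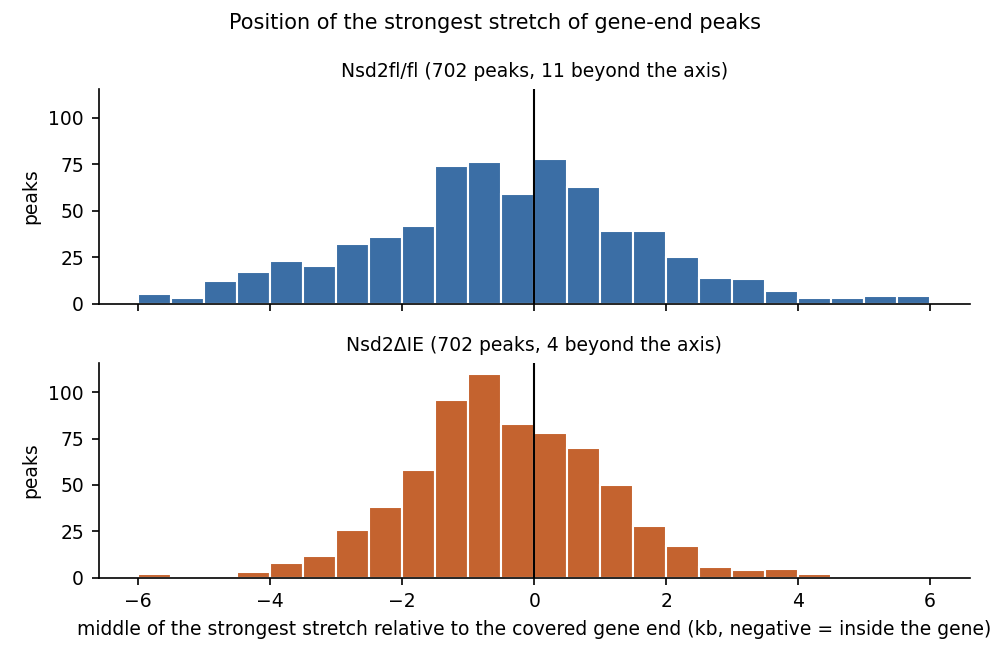
Position of the middle of the strongest stretch relative to the covered gene end, in kb along the gene, as the number of peaks per bin of 0.5 kb for 702 gene-end peaks of each library. The vertical line is the gene end, and 407 of the Nsd2fl/fl and 442 of the Nsd2ΔIE peaks have their strongest stretch to its left, inside the gene.

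Some gene-end peaks covered the facing ends of neighbours on opposite strands. These numbered 105 in Nsd2fl/fl, 13.0% of the gene-end peaks that cover a listed end, and 79 in Nsd2ΔIE, 10.1%. Among peaks of any class that cover a listed end the shares were close, 11.8% and 9.32%. Together they covered 167 pairs of genes, of which 17 were covered by a gene-end peak in both libraries, 88 by one of the Nsd2fl/fl list only and 62 by one of the Nsd2ΔIE list only. Peaks of other classes or over 1 of the ends are not counted here, and most of these regions did meet a peak of the other library, as given further on. The same counts over peaks of any class were not made. Of all genes whose end a gene-end peak covered, 22.3% of those in Nsd2fl/fl and 23.7% of those in Nsd2ΔIE were covered in both libraries. The transcripts of 53 pairs overlapped at their ends. Peaks over facing ends were the widest of the gene-end peaks, with medians of 5875 and 4515 bp against 4918.5 and 3627 bp for peaks over 1 end. Among the 17 pairs, named here after their values were seen, *Cdhr2*, which encodes a protocadherin of the intestinal brush border, and *Gprin1* ended 9 bp apart under peaks of 5072 bp in Nsd2fl/fl and 2117 bp in Nsd2ΔIE. *Itpr3*, an IP3 receptor that releases calcium from the ER, and *Uqcc2* ended under peaks of 11578 and 2701 bp. *Sgsm3* and *Mrtfa*, a coactivator of serum response factor, whose transcripts overlap at their ends, lay under peaks of 12529 and 2834 bp. The opposite order was seen at *Kctd17* and *Tmprss6*, a serine protease that controls hepcidin, with 3770 and 9591 bp. In all, the Nsd2ΔIE peak was the narrower one at 13 of the 17 pairs and the wider one at 4. Of all 5816 pairs of peaks of any class that overlapped only each other, 74.1% were narrower in Nsd2ΔIE.

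The strongest gene-end peaks of the regular chromosomes lay at such a pair. At *Anxa11*, an annexin that binds phospholipids with calcium, and *Plac9a*, the Nsd2fl/fl peak ran on chromosome 14 from 25876752 to 25897019, with a summed signal of 190543. The Nsd2ΔIE peak ran from 25872720 to 25894909, with 222783. They were 20268 and 22190 bp wide and ranked 15th and 10th of their lists. Both lists assigned the peak to *LOC118568117*. One further peak, on an unplaced scaffold, ranked 7th in Nsd2fl/fl with a signal of 632760 over 12455 bp, or 50.8 per bp, far above the median of 6.25.

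Other strong peaks in Nsd2fl/fl were longer there than in Nsd2ΔIE. At the end of *Plxna1*, a plexin receptor for semaphorins, the Nsd2fl/fl peak spanned 23599 bp on chromosome 6 from 89287654 to 89311252, and the overlapping Nsd2ΔIE gene-end peak 6937 bp. Both were assigned to *4930512J16Rik*. An 18135 bp exon peak of the Nsd2ΔIE list also met that region. At *Rxra*, the retinoid X receptor that partners many nuclear receptors, the peaks spanned 21735 and 12214 bp and stopped inside the gene, at -648 and -2901 bp from its end. A second Nsd2ΔIE peak there, a promoter peak of 9613 bp, also overlapped the Nsd2fl/fl peak. At *Iqsec3*, assigned to its neighbour *Slc6a12*, a betaine and GABA transporter, they spanned 15708 and 12091 bp. These loci were chosen for their signal, so the sizes describe them and do not stand for the rest.

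The strongest Nsd2ΔIE peaks after *Anxa11* and *Plac9a* included several that were longer than their Nsd2fl/fl counterparts. At *Plch2*, a phospholipase C, the Nsd2ΔIE peak spanned 15200 bp and covered the gene's end, and the Nsd2fl/fl peak spanned 10446 bp and stopped inside the gene, at -4078 bp from the end. A further Nsd2fl/fl gene-end peak of 4308 bp began 1798 bp past that end. At *Tsc2*, whose product restrains mTORC1, the Nsd2ΔIE gene-end peak spanned 12274 bp and overlapped an Nsd2fl/fl exon peak of 4541 bp. At *Plxnb1*, another plexin, the peaks spanned 13893 bp in Nsd2ΔIE and 11338 bp in Nsd2fl/fl, and both covered the end. At the facing ends of *Adamts7* and *Tbc1d2b* the Nsd2ΔIE peak spanned 12781 bp, and the Nsd2fl/fl peak it overlapped most was a longer 5' UTR peak of 15992 bp.

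**Figure D2:**
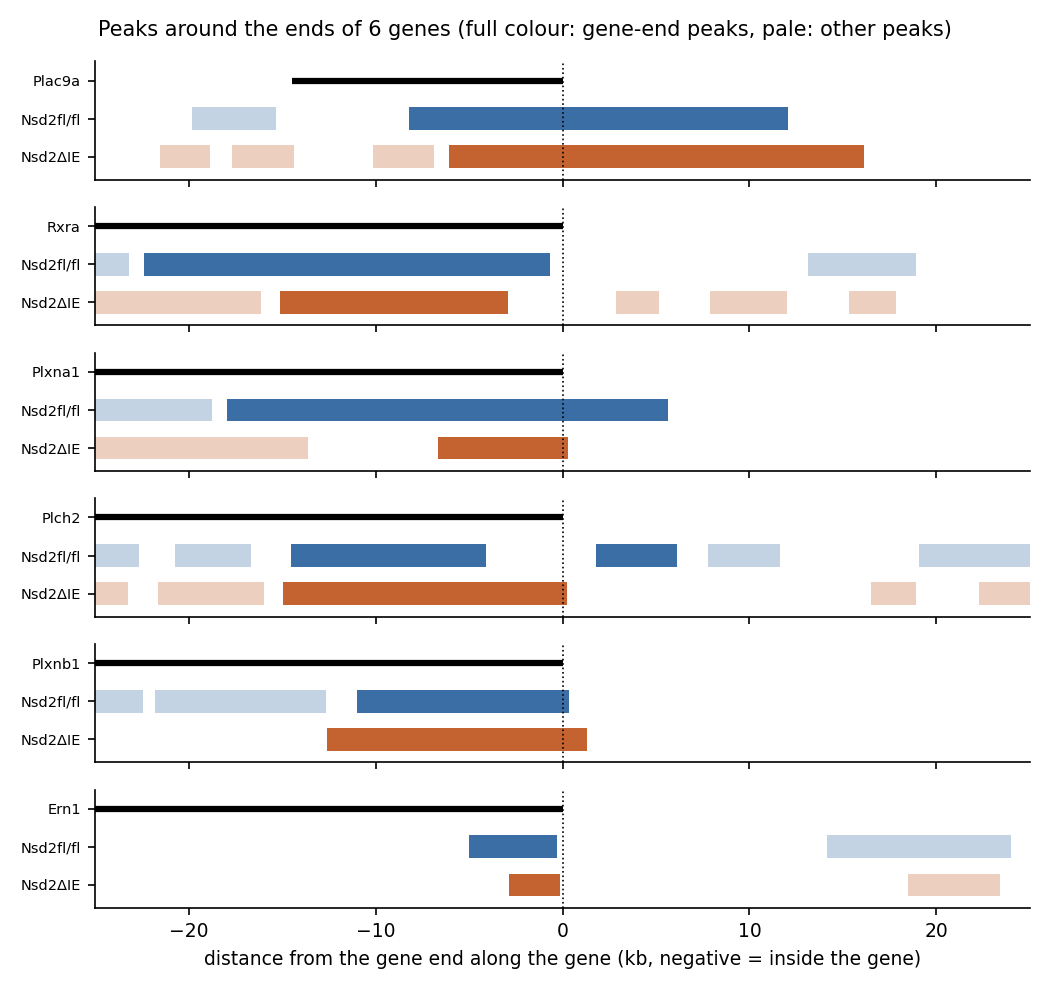
Peaks of both libraries within 25 kb of the ends of 6 genes, drawn along each gene with its end at 0 and distance in kb. Black bars are the genes, full colours the gene-end peaks and pale colours peaks of other classes. The *Plxna1* peak is 23599 bp in Nsd2fl/fl and 6937 bp in Nsd2ΔIE, and at *Plch2* the Nsd2ΔIE peak is the longer one.

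The 3' end of *Ern1*, which encodes the ER stress sensor IRE1α, had a gene-end peak in both libraries, and both lists assigned it to *Icam2*. On chromosome 11, *Ern1* occupies positions 106288446 to 106378622 and is read from the minus strand. The Nsd2fl/fl peak ran from 106288740 to 106293431, 4692 bp with a signal of 27549, and ranked 9594th. The Nsd2ΔIE peak ran from 106288603 to 106291318, 2716 bp with a signal of 20587, and ranked 11662nd. The peaks began 294 and 157 bp before the gene's end and reached 4985 and 2872 bp into the gene. Both peaks lay near the middle of their lists by rank, and the Nsd2ΔIE peak was the shorter one.

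Gene-end peaks were met by a peak of the other library more often than the average peak. In Nsd2fl/fl 770 of 1753 (43.9%, 41.6% to 46.3%) overlapped an Nsd2ΔIE peak by at least 1 bp, against 34.1% of the whole list. In Nsd2ΔIE 753 of 1899 (39.7%, 37.5% to 41.9%) overlapped an Nsd2fl/fl peak, against 30.7% of the whole list. The 3' UTR peaks carried this, with 45.2% and 41.6%, the highest share of any class in each list. Promoter peaks had 41.0% and 38.4%, and 5' UTR peaks 38.8% and 38.6%. Downstream peaks had 32.8% and 26.9%, and distal intergenic peaks had the lowest shares, 21.8% and 18.3%. In Nsd2ΔIE the interval of the 3' UTR peaks overlapped those of the promoter and 5' UTR peaks, and in Nsd2fl/fl it did not.

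**Figure D3:**
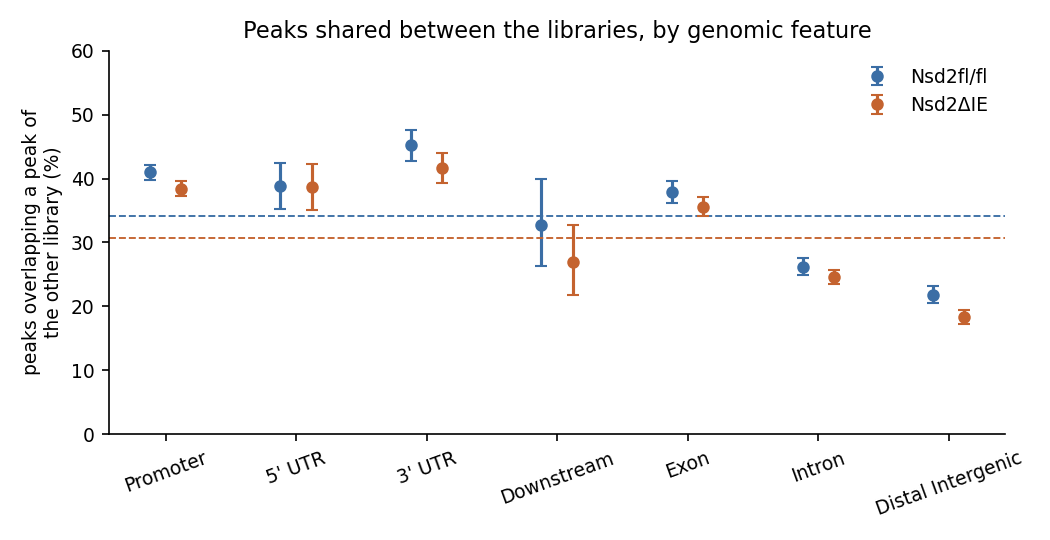
Share of peaks that overlap a peak of the other library, in percent, for each annotated class. Points are the shares, bars their 95% Wilson intervals and dashed lines the shares over the whole lists, 34.1% and 30.7%. 3' UTR peaks have the highest point in both libraries and Downstream peaks lie near the lines.

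Wide and strong peaks overlap more often, so the shares were also taken within quartile groups of each list. In Nsd2fl/fl the gene-end peaks of the narrowest to the widest group were shared in 39.7%, 38.6%, 36.6% and 58.0%, against 27.6%, 27.5%, 28.5% and 49.3% of the other peaks. In Nsd2ΔIE the shares were 32.8%, 37.3%, 34.7% and 50.1%, against 24.7%, 26.2%, 26.9% and 42.2%. The gene-end share was the higher one in all 4 width groups of both lists, and also in all 4 groups by signal. The other peaks pool all remaining classes, among them intron and distal intergenic peaks, which had the lowest shares. Promoter and 5' UTR peaks were not taken apart within the groups, so the groups cannot show whether the higher share is particular to gene ends. With each peak replaced by the 2 kb around its centre, a choice made after seeing the data, 26.1% and 22.0% of gene-end peaks were shared, against 20.6% and 17.6% of all peaks.

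**Figure D4:**
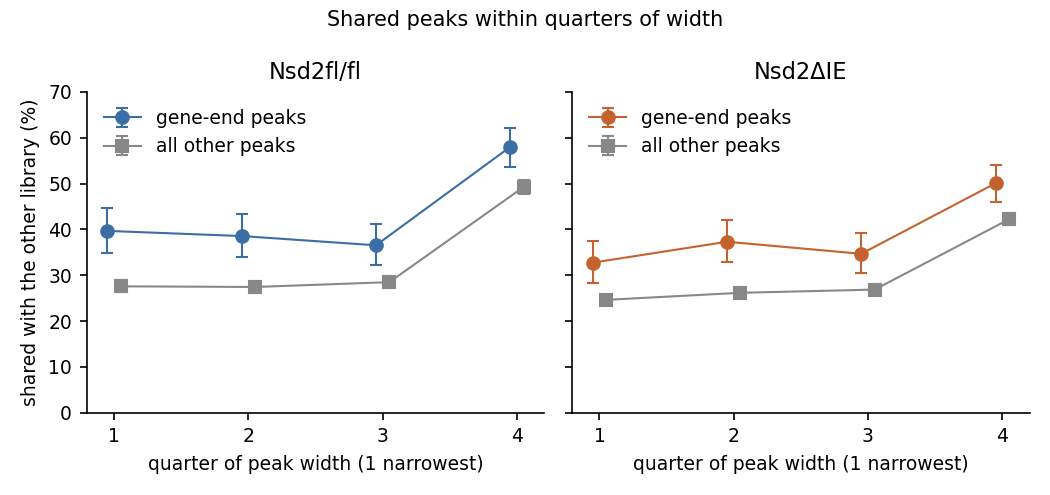
Share of peaks that overlap a peak of the other library, in percent, within quartile groups of peak width of each list (1 narrowest, 4 widest). Coloured circles are gene-end peaks, grey squares all other peaks, and bars 95% Wilson intervals. The circles lie above the squares in all groups, with 58.0% and 49.3% in the widest group of Nsd2fl/fl.

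The peaks over facing ends were shared most, 64 of 105 (61.0%, 51.4% to 69.7%) in Nsd2fl/fl and 50 of 79 (63.3%, 52.3% to 73.1%) in Nsd2ΔIE. Peaks over the end of 1 gene were shared in 44.9% and 40.3%, and those over no listed end in 41.4% and 37.6%. The peaks over facing ends were also the widest, and the part of width in this difference was not tested.

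A shared region did not always keep its class. For the 770 shared Nsd2fl/fl gene-end peaks, the Nsd2ΔIE peak with the longest overlap was a gene-end peak in 505 (65.6%), an exon peak in 138 (17.9%) and a promoter peak in 68 (8.83%). For the 753 shared Nsd2ΔIE peaks, the Nsd2fl/fl peak was a gene-end peak in 528 (70.1%), a promoter peak in 118 (15.7%) and an exon peak in 67 (8.90%). Taken class by class, shared 3' UTR peaks met their own class in 63.9% (Nsd2fl/fl) and 69.3% (Nsd2ΔIE). Downstream peaks did so in 52.5% and 45.6%, and 5' UTR peaks in 58.7% and 60.4%. The shares were 82.1% and 91.0% for promoter, 77.3% and 69.0% for exon, 87.1% and 73.3% for intron, and 95.7% and 89.6% for distal intergenic peaks. Promoters rank first in the annotation, so a wide peak that reaches a TSS is a promoter peak even where it also covers a gene's end. At *Brsk2* and *Mob2*, for example, all 3 Nsd2ΔIE gene-end peaks assigned to *Mir3104* overlapped 1 Nsd2fl/fl promoter peak of 23338 bp, which held the peaks of 3359 and 2095 bp whole and 3252 bp of the third, 5804 bp wide. At the gene level, 557 genes were assigned a gene-end peak in both libraries, which was 33.6% of the 1658 genes in Nsd2fl/fl and 31.1% of the 1790 in Nsd2ΔIE. Genes whose end was covered in both numbered 203, or 22.3% of 912 and 23.7% of 855. For scale, 12462 genes had a peak of any class in Nsd2fl/fl and 13595 in Nsd2ΔIE. Of these, 7870 had one in both, by a looser rule, since peaks of different classes count.

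Where a gene-end peak of 1 list overlapped exactly 1 peak of the other and that was a gene-end peak too, the widths could be compared directly. There were 433 such pairs, with median widths of 4715 bp in Nsd2fl/fl and 3726 bp in Nsd2ΔIE. The Nsd2ΔIE peak was the narrower one in 313 (72.3%), against 74.1% of all 5816 such pairs of any class, and the log2 ratio of width had a median of -0.32, against -0.43 over all pairs. A ratio below -0.5 was seen in 175 (40.4%), where 45.5% of all pairs passed that limit, and a ratio above 0.5 in 47 (10.9%), where 8.68% did. Gene-end pairs were thus narrower in Nsd2ΔIE like the lists as a whole, by a slightly smaller median. The strongest stretches of paired peaks lay a median of 1532.5 bp apart, and the shared part made up a median of 54.2% of the joined span, against 45.6% over all pairs.

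**Figure D5:**
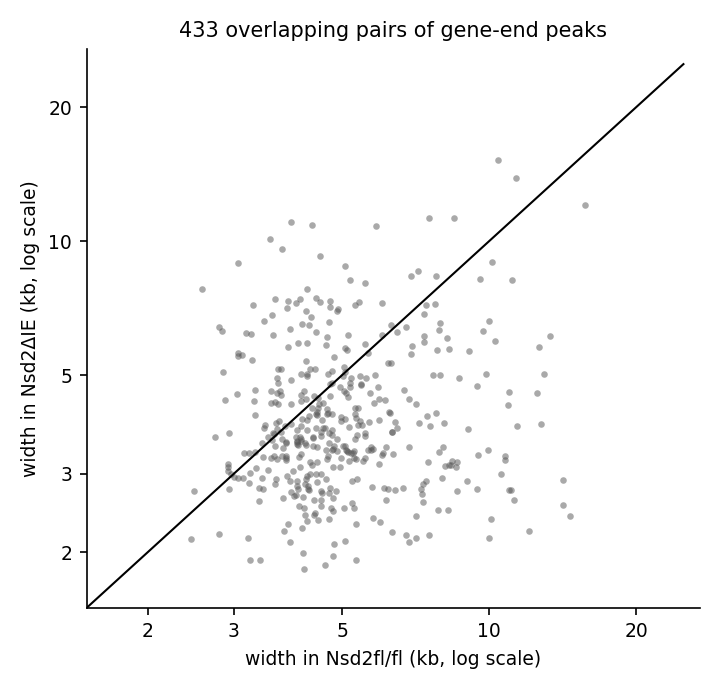
Width of the 433 pairs of overlapping gene-end peaks in Nsd2fl/fl and Nsd2ΔIE, in kb on log axes, with 1 point per pair and the line of equal width. Below the line lie 313 pairs, which are narrower in Nsd2ΔIE.

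The peaks assigned to a gene were also summed. Of the 1904 genes with a gene-end peak in either library and a peak in both, 755 (39.7%) had less called length in Nsd2ΔIE by a log2 ratio below -0.5, where 41.8% of all 7870 such genes did. The ratio was above 0.5 in 381 (20.01%), where 19.0% of all did. Among the 557 genes assigned a gene-end peak in both libraries, 221 had less and 99 more. Genes chosen for a gene-end peak in 1 list lean towards longer peaks in that list, 48.2% with less for the Nsd2fl/fl list and 31.5% for the Nsd2ΔIE list, which the choice itself favours. Before any centring, the shares of 39.7% with less and 20.01% with more were near those of all genes. Centring the ratios on the median of all genes, -0.32, turned the numbers to 546 with less and 573 with more. The centred numbers over all genes were not computed, so these 2 have no background beside them.

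Of the gene-end peaks, 983 in Nsd2fl/fl (56.1%) and 1146 in Nsd2ΔIE (60.3%) had no counterpart, where 65.9% and 69.3% of all peaks had none. The strongest of these in Nsd2fl/fl covered the end of *Mybpc3*, a myosin-binding protein of heart muscle, over 14803 bp with a signal of 93645. It was followed by a peak of 12964 bp inside *Trak1*, an adaptor for the transport of mitochondria, that stopped at -1713 bp from its end, and by one of 16494 bp over the end of the transcription factor gene *Nrf1*, which was assigned to *Mir182*. In Nsd2ΔIE the strongest covered the end of *Fam222a* over 12833 bp with a signal of 89560. The next covered the end of *Ccdc97* over 9348 bp, and 1 at the forkhead gene *Foxd2*, a Downstream peak of 13572 bp, began 2600 bp past the gene's end. These peaks were named as the strongest without a counterpart and do not stand for the rest. By quartile groups of signal, 31.2% of the weakest and 62.4% of the strongest Nsd2fl/fl gene-end peaks were shared. In Nsd2ΔIE these shares were 26.5% and 54.5%. The part of signal in the absence of counterparts was not tested. The gene-end peaks of lowest signal were assigned to *Hcn4*, the pacemaker channel, with 21790 in Nsd2fl/fl, and to *Adamts15*, with 16573 in Nsd2ΔIE.

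Most genes had a single gene-end peak, 1569 of 1658 in Nsd2fl/fl and 1693 of 1790 in Nsd2ΔIE. The most, 4 in each library, were assigned to *Gm30492*, and 1 of those in Nsd2fl/fl covered the end of *Mad1l1*, which acts in the spindle checkpoint. Counting peaks per assigned gene thus collected peaks of neighbouring genes.

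Of all genes with a peak, 13.3% in Nsd2fl/fl and 13.2% in Nsd2ΔIE were assigned a gene-end peak, and the counts in the gene lists below are too small to be set apart from these shares. Of 22 barrier genes, 9 had a peak of any class in each library. Of these 9, 0 were assigned a gene-end peak in Nsd2fl/fl and 3 in Nsd2ΔIE. These were *Muc2*, the main secreted mucin of the colon, with a peak of 3763 bp over its end, *F11r*, which encodes the junctional adhesion molecule JAM-A, with 3539 bp, and *Cldn15*, a claudin that forms cation pores, with 3542 bp. These 3 peaks had no Nsd2fl/fl counterpart, like 60.3% of the Nsd2ΔIE gene-end peaks, and the *Cldn15* signal of 16683 was near the lower limit of its list. Of 14 genes of lipid absorption and cytokines, 4 and 7 had a peak of any class. *Fabp1* and *Cxcr2* were assigned a peak in Nsd2ΔIE, and both peaks lay outside the gene. The *Fabp1* peak of 4239 bp covered the end of *Smyd1* instead.

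Of 19 ER stress genes, 5 and 6 had a peak of any class. *Creb3l3*, an ER-bound transcription factor of liver and gut, was the only one assigned a gene-end peak, in Nsd2fl/fl, 6902 bp wide, over its end and that of the facing *Thop1*. It met 2 Nsd2ΔIE peaks, and the one with the longest overlap was assigned to *Thop1*. Of 22 cleavage and polyadenylation and termination factors, which themselves act at gene ends, 6 and 7 had a peak of any class, and *Cpsf1* and *Cstf1* had a gene-end peak over their own end in both libraries. The end of *Cpsf4* was covered in Nsd2ΔIE by a gene-end peak of 3698 bp, which was assigned to *Atp5j2*. In Nsd2fl/fl a promoter peak of 10737 bp covered that end as well and overlapped the Nsd2ΔIE peak over 3671 bp. The widths were 5191 and 4701 bp at *Cpsf1* and 4227 and 5371 bp at *Cstf1*. The peak at *Cpsf1* was thus wider in Nsd2fl/fl and the peak at *Cstf1* wider in Nsd2ΔIE.

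Of 31 genes listed as H3K36 enzymes and readers, 13 and 14 had a peak of any class. The role of each listed gene at H3K36 was not checked here. *Nsd3* and *Setd3* were assigned a gene-end peak in Nsd2fl/fl, 5245 and 7553 bp wide. *Setd2* and *Dnmt3a*, a DNA methyltransferase that reads H3K36me2, were assigned one in Nsd2ΔIE, 3176 and 6141 bp wide, and both lay before the gene's start. The peak over the end of *Setd3* was the only one of these 4 that covered the end of its assigned gene. The 4 peaks had no counterpart in the other library, like most gene-end peaks.

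The tissue could be checked only through the presence of peaks, which does not measure expression. A peak of any class was listed for 6 and 8 of 14 epithelial markers, 4 and 4 of 13 immune markers and 6 and 7 of 16 markers of stroma, muscle, vessels and nerves. Of 21900 RefSeq protein-coding gene symbols, 30.9% and 32.9% had one, so these counts do not tell the tissue. Gene-end peaks of the marker lists included *Chga*, the granin of enteroendocrine cells, with 15372 bp in Nsd2fl/fl, starting 718 bp past its end. The smooth muscle genes *Myh11* and *Tagln* were assigned peaks of 6364 and 2897 bp in Nsd2fl/fl. The *Tagln* peak did not touch that gene and lay 453 bp past its end. The *Chga* and *Myh11* peaks overlapped Nsd2ΔIE exon peaks of 6920 and 3081 bp, and the *Tagln* peak had no counterpart. In Nsd2ΔIE the T cell gene *Cd8a* was assigned a Downstream peak of 1936 bp, and gene-end peaks of 4899 and 4769 bp covered the ends of *Csf1r*, the receptor of macrophage growth factor, and *Pdgfrb*, a receptor of pericytes and fibroblasts. These Nsd2ΔIE peaks had no Nsd2fl/fl counterpart. Genes of all 3 marker lists thus had gene-end peaks, and their part in the differences between the libraries was not tested.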

How the data were processed

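H3K36me2 CUT&Tag peaks of 1 colon library per genotype were used as deposited. The submitters' processing notes name Bowtie2, SEACR, deepTools and ChIPseeker without versions or settings, and the build hg38, a human build that cannot hold for these mouse positions, so positions are printed as they stand in the lists. The deposited signal is a sum over each peak, with no stated scaling to depth, and the authors called and annotated each library separately. Depth is unknown, so no precision from depth can be given. No genome of the lists' build was used, and no sequence is shown.

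Ends, widths and shares were computed with Python 3.11.15, pandas 2.3.3, numpy 2.4.6 and scipy 1.17.1 (95% Wilson intervals), overlaps of at least 1 bp with bedtools 2.31.1, and figures with matplotlib 3.10.9. The functions were tested on simulated lists. The share of all protein-coding genes with a peak uses symbols of a RefSeq gene table and no positions of it. The end of a gene is that of a transcript named in either list. Named genes were the 5 strongest gene-end peaks, overlapping pairs and peaks without counterpart, the 3 widest, the genes with most peaks, the lowest signals, *Ern1*, *Icam2* and genes of the lists. Not every such gene is described. The members and lists were chosen with earlier results of these data known. Alternatives were 3' UTR peaks only, the strongest 50%, autosomes, equal numbers of peaks, shares of length, a reciprocal overlap of 50%, 1 kb, peak centres, a log2 limit of 1, centred ratios and, added after seeing the data, the 2 kb around each centre.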

Additional observations from a re-analysis of the deposited data

How the results depend on the processing

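No paired analysis was possible because a genotype is represented by 1 library only, which also leaves no replicate to omit. Of 82 values under an alternative, 44 stayed within the counting interval of the reported value (for numbers of genes, within 1.5 times), among them all values on autosomes only, and 38 moved. Some of the 44 could not have moved, so the tally does not measure robustness. The share near another gene's TSS was 0 by the rule in every setting. The Nsd2fl/fl list, the shorter one, was not cut for equal numbers of peaks, so its share and median width stayed the same there. Values are given for Nsd2fl/fl and then Nsd2ΔIE. With 3' UTR peaks only, their share of all peaks was 7.87% and 6.999%, and 40.5% of those in Nsd2ΔIE had the assigned transcript's end within 3 kb. In the strongest 50% of each list, gene-end peaks made up 10.1% and 9.47%, had median widths of 5630 and 4208.5 bp and signals of 6.41 and 6.66 per bp, and 46.0% in Nsd2fl/fl had the assigned end within 3 kb. There, 39.2% and 35.2% were shared with any peak and 26.3% and 24.1% with a gene-end peak, 22.4% and 20.8% had a promoter peak at the assigned gene (28.7% and 29.4% in the full lists), and 389 genes had less and 163 more called length. With equal numbers of peaks, the Nsd2ΔIE share was 8.49% with a median width of 3694 bp, and 40.7% of Nsd2fl/fl gene-end peaks were shared with any peak and 27.7% with a gene-end peak (29.9% in the full lists). The Nsd2ΔIE share was then 41.4%, so which library had the higher share turned. By called length, gene-end peaks made up 8.57% in Nsd2ΔIE. Under a reciprocal overlap of 50%, 20.7% and 17.8% were shared with any peak, against 15.8% and 13.4% of all peaks. With a gene-end peak, 16.5% and 15.3% were shared under that rule. With the 2 kb around each centre, added after seeing the data, the shares were 26.1% and 22.0% with any peak, and 19.97% and 18.4% with a gene-end peak. The shared part of all peaks was not computed for the strongest 50% or for equal numbers of peaks. The assigned end was within 1 kb in 32.7% and 29.7%, and within 3 kb of the peak's centre in 27.3% and 30.8%. With a log2 limit of 1, 433 genes had less and 177 more length, and after centring 573 had more. Apart from the construction of these alternatives, the causes were not tested. The depth is unknown and the lists have different lower signal limits, on which signals, numbers of peaks and widths can all depend.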

Other observations

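The gap from a gene-end peak to the nearest peak of its list had a median of 9970 bp in Nsd2fl/fl, against 14010 bp for all other peaks, and of 9090 against 12498 bp in Nsd2ΔIE. Promoter peaks had similar medians of 10917 and 9322 bp, and exon peaks 11394 and 9232 bp. It was under 3 kb for 20.02% of gene-end peaks and 15.7% of the others in Nsd2fl/fl, and for 22.1% and 18.2% in Nsd2ΔIE. The genes assigned to gene-end peaks had median lengths of 10589 and 10242 bp, against 14615 and 14102 bp for all other peaks, 11340 and 10825.5 bp for promoter peaks and 7334 and 7237 bp for distal intergenic peaks.

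Across the autosomes, gene-end peaks made up 7.11% to 9.98% of the peaks of a chromosome in Nsd2fl/fl and 5.84% to 9.68% in Nsd2ΔIE, with the lowest share on chromosome 18 in both lists. The X chromosome held 0 gene-end peaks of 1 peak in Nsd2fl/fl and 1 of 5 in Nsd2ΔIE.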
